A study of Mus musculus with 6 samples.

Results

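The circadian clock genes described here are 10 genes of the daily timing loop, *Arntl*, *Per1*, *Per2*, *Per3*, *Nr1d1*, *Nr1d2*, *Dbp*, *Tef*, *Hlf* and *Nfil3*. They were found by gene symbol in a table of 18422 genes, and all 10 were present and counted deeply enough to be tested, among 14866 genes that were. They were picked because of how they differed between the genotypes of these same libraries, so their differences are given as a description and carry no test. RNA came from snap-frozen ears of mice aged 21 days. The ecko group was 3 mice with an endothelial-specific, tamoxifen-induced deletion of *Vegfr2*, which encodes the principal VEGF-A receptor of blood vessels, and the control group was 3 littermates. All 6 mice had received tamoxifen. The Cre driver, the tamoxifen schedule of these mice and the hour of day at which each ear was taken are not given in the sources used here.

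In mammals the clock is a loop of transcription factors that runs in nearly every cell. BMAL1, the product of *Arntl*, pairs with CLOCK or NPAS2, binds E-boxes and switches on the *Per*, *Cry* and *Nr1d* genes, whose products then switch the loop off: PER and CRY proteins block BMAL1 itself, and the REV-ERB receptors encoded by *Nr1d1* and *Nr1d2* repress *Arntl* through ROR elements. DBP, TEF and HLF carry the rhythm onward by activating genes with a D-box, an element at which NFIL3 represses. The activating arm and the repressing and output arms therefore peak at opposite times of day, and in skin such rhythms are known in keratinocytes, fibroblasts and hair follicles.

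The elements through which these factors act could be seen in several of the promoters. RefSeq promoter windows of build GRCm38.p6, each from 250 bases before to 50 bases after an annotated start, were held for 9 of the 10 genes, in 12 windows. The bases before the start of *Per1* (chr11:69098699-69098948, plus strand), *Per3* (chr4:151044666-151044915, minus strand), *Tef* (chr15:81802423-81802672, plus strand) and *Nr1d1* (chr11:98775378-98775627, minus strand) are shown 5′ to 3′ because each holds an element of the loop, and 30 bases around a match near the second start of *Arntl* (chr7:113207529-113207558, plus strand) and near the start of *Nfil3* (chr13:52981032-52981061, minus strand) are shown for the same reason. Capitals mark the E-box CACGTG in *Per1* and *Tef*, the D-box TTATGCAA in *Per1*, the D-box TTATGTAA in *Per3*, the variant E-box CACGTT (read on the opposite strand) in *Nr1d1* and the ROR element ANTNGGTCA in *Arntl* and, on the opposite strand, in *Nfil3*.
Per1: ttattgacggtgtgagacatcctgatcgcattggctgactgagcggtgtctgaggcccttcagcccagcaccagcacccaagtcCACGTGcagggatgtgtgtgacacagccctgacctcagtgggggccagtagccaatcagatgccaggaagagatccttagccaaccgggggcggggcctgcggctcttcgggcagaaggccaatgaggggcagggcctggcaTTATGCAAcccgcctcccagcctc
Per3: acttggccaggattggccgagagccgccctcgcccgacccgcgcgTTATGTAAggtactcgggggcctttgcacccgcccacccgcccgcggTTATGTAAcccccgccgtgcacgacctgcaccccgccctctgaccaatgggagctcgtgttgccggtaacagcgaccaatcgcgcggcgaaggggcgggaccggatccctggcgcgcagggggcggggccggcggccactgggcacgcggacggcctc
Tef: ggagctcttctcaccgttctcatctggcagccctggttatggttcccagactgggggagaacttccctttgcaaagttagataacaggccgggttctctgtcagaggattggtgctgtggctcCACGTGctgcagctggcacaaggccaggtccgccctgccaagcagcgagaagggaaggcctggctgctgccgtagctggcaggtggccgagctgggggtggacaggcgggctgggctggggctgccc
Nr1d1: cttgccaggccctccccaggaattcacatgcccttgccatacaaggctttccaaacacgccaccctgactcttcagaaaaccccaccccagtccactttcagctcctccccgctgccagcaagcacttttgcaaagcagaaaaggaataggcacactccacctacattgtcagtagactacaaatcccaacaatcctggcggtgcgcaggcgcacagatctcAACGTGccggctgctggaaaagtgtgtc
Arntl: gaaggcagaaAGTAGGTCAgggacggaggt
Nfil3: cgctcggaacTGACCTACTaacacacatct

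Both strands of every window were searched, and no match in these windows overlapped another. The first *Per1* window held an E-box that began 166 bases before its start and a D-box 24 bases before it. That start, like those of *Per3* and *Nfil3*, lies inside the gene span given below and not at its outer end. The *Per3* window held a pair of identical D-boxes, 205 and 158 bases before the start, and each of the *Tef* windows held 1 E-box. Among all 32851 promoter windows of the same length, 7.15% held CACGTG, 4.68% held CACGTT, 0.938% held TTATGTAA, 0.743% held TTATGCAA and 2.24% held ANTNGGTCA. The ROR element began 29 bases after the second start of *Arntl* and 12 bases before the start of *Nfil3*. When a further A was required in front of it, the match in *Arntl* remained, the one in *Nfil3* did not, and 0.606% of windows held the longer form. The cyclic AMP response element TGACGTCA, present in 1.79% of windows, was found in *Hlf*, 9 bases before its start. None of these letters was found in the windows of *Dbp* and *Nr1d2*, in the first window of *Arntl* or in the second of *Per1*. A match is a description of the letters and does not show that a factor was bound in this skin.

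**Figure D1:**
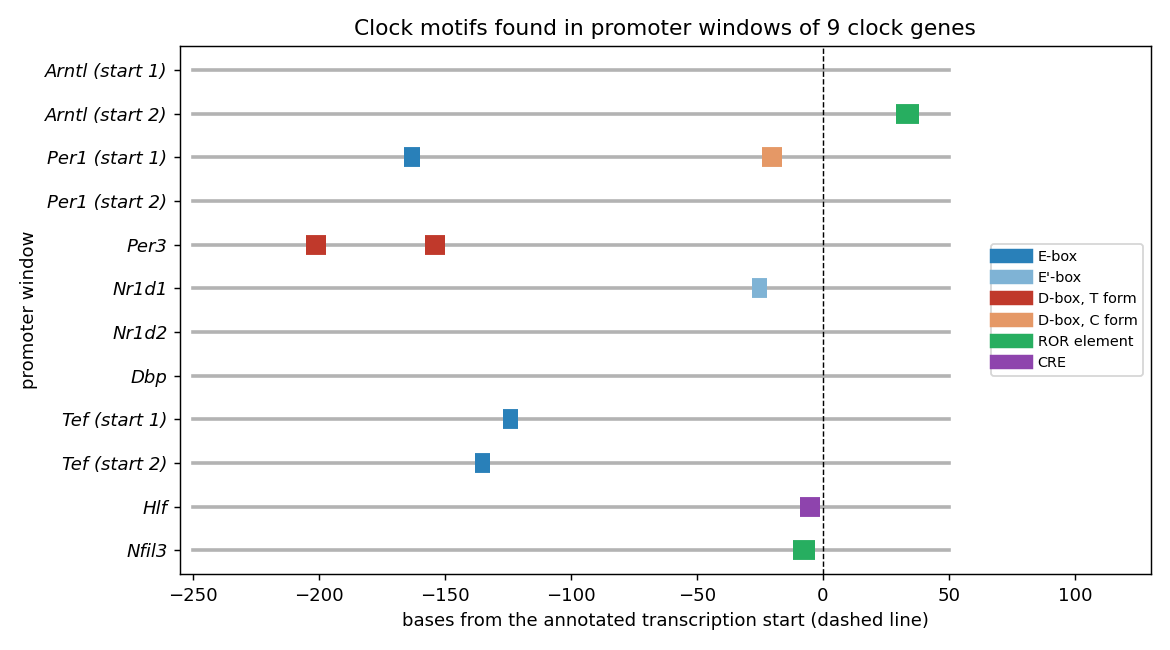
Positions of the searched motifs in the 12 promoter windows of 9 clock genes, in bases from the annotated start (dashed line), with each grey line spanning 250 bases before to 50 bases after it. D-boxes were found in *Per1* and *Per3*, E-boxes in *Per1* and *Tef*, and the ROR element in *Arntl* and *Nfil3*.

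The libraries held between 17255416 and 18054696 estimated counts, and levels are given as CPM, read counts scaled to a common library total with TMM factors. The targeted gene, listed as *Kdr*, had 3.36, 2.05 and 2.35 CPM in the ecko libraries, against 27.4, 29.1 and 33.7 CPM in the controls, so every library matched its label. Reads of Y-linked genes put 2 male mice and 1 female mouse in each group, the female being the third library of each. Keratin genes of skin were abundant in every library, with *Krt10* at 13900 to 15300 CPM in ecko and 12800 to 13400 CPM in control skin. Whole skin mixes many cell types, and fewer cells of a type and less RNA per cell cannot be told apart in it.

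The activating arm is represented among the 10 by *Arntl*, whose mean was slightly higher in ecko skin. *Arntl* (chromosome 7, 113178471 to 113314126) measured 35.0, 39.2 and 39.1 CPM in ecko libraries 1 to 3, against 31.6, 29.5 and 37.5 CPM in controls 1 to 3. The groups overlapped, since the female control lay above ecko 1. The means were 37.8 ± 2.4 CPM in ecko and 32.9 ± 4.16 CPM in control skin (SD, n = 3 each), a log2 fold change of 0.20 (SE 0.09), which is about the size of the spread between libraries.

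The period genes, whose products form the repressor complex with the cryptochromes, were lower to unequal degrees. *Per3* (chromosome 4, 150997018 to 151044707) measured 61.7, 54.3 and 56.0 CPM in ecko, against 76.4, 84.3 and 84.4 CPM in control libraries. Every ecko value lay below every control value, and the ecko mean of 57.4 ± 3.86 CPM (SD, n = 3) was 70.2% of the control mean of 81.7 ± 4.57 CPM (SD, n = 3). *Per2* (chromosome 1, 91415977 to 91459351) measured 44.6, 44.5 and 51.3 CPM in ecko, against 64.8, 71.9 and 52.3 CPM in control libraries. The groups did not overlap, but the female libraries, at 51.3 CPM in ecko and 52.3 CPM in control, nearly met, while the male libraries were well apart. *Per1* (chromosome 11, 69095108 to 69109965), which also responds directly to glucocorticoids and to growth factor signals, measured 180, 169 and 141 CPM in ecko, against 169, 181 and 176 CPM in control libraries. Its groups overlapped, and ecko 3 alone lay below all controls. The log2 fold changes were -0.51 (SE 0.07) for *Per3*, -0.43 (SE 0.11) for *Per2* and -0.10 (SE 0.09) for *Per1*.

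Both genes of the REV-ERB receptors, the heme-binding repressors of *Arntl*, had lower means in ecko skin. *Nr1d2* (chromosome 14, 18204056 to 18239106) measured 97.7, 85.7 and 96.4 CPM in ecko, against 121, 131 and 109 CPM in control libraries, with no overlap. *Nr1d1* (chromosome 11, 98767932 to 98775377) measured 56.0, 40.5 and 33.5 CPM in ecko, against 49.5, 70.3 and 51.1 CPM in control libraries. Here ecko 1 lay above 2 of the 3 controls, so the groups overlapped although the log2 fold changes of *Nr1d1* (-0.40, SE 0.18) and *Nr1d2* (-0.37, SE 0.08) were close. The end of *Nr1d1* overlaps *Thra*, a thyroid hormone receptor gene on the opposite strand, by 1075 bases in the annotation. The counts of *Nr1d1* were not whole numbers in all 6 libraries, as happens where an estimate divides shared reads between genes. *Thra* itself measured 129, 127 and 123 CPM in ecko, against 117, 131 and 143 CPM in control libraries, and its groups overlapped.

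Among the 3 activators at the D-box, *Dbp* had the largest difference of all 10 genes and *Hlf* the smallest. *Dbp* (chromosome 7, 45705100 to 45710203) measured 26.9, 19.9 and 14.5 CPM in ecko, against 38.3, 40.0 and 43.3 CPM in control libraries. The ecko libraries lay below all controls and were themselves spread out, with a coefficient of variation of 30.3% in ecko and 6.35% in control skin. Its means were 20.4 ± 6.19 CPM in ecko and 40.5 ± 2.57 CPM in control skin (SD, n = 3 each), so the ecko mean was 50.4% of the control mean (log2 fold change -0.99, SE 0.17). *Dbp* overlaps *Sphk2*, a sphingosine kinase gene on the opposite strand, by 737 bases, and its counts too were not whole in all 6 libraries. *Sphk2* measured 72.1, 69.4 and 71.5 CPM in ecko, against 78.1, 73.2 and 78.8 CPM in control libraries, a log2 fold change of -0.11 (SE 0.06). By annotated gene span, introns included, *Per3* overlaps *Camta1* on the same strand by 41014 bases, and annotated antisense genes overlap *Arntl* by 2394 bases and *Tef* by 193 bases. The *Per3* counts were whole in all 6 libraries, and *Camta1* measured 52.8, 52.7 and 55.9 CPM in ecko, against 50.6, 43.9 and 50.6 CPM in control libraries, with the ecko values above the controls.

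*Tef* (chromosome 15, 81802673 to 81826863) measured 257, 236 and 231 CPM in ecko, against 312, 331 and 299 CPM in control libraries. The groups did not overlap, and the ecko mean of 241 ± 13.7 CPM (SD, n = 3) was 76.8% of the control mean of 314 ± 16.2 CPM (SD, n = 3). *Hlf* (chromosome 11, 90336535 to 90390917) measured 95.0, 95.5 and 92.5 CPM in ecko, against 101, 91.5 and 105 CPM in control libraries. Its values overlapped and its log2 fold change was -0.07 (SE 0.06), so the genes of this family of related factors were not lower to the same extent.

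*Nfil3* (chromosome 13, 52967209 to 52982878), the repressor at the D-box, was higher in ecko skin, opposite in sign to the activators at that element. It measured 28.2, 31.3 and 31.9 CPM in ecko, against 25.9, 25.1 and 24.0 CPM in control libraries. The groups did not overlap, and the means were 30.4 ± 1.96 CPM in ecko and 25.0 ± 0.972 CPM in control skin (SD, n = 3 each; log2 fold change 0.28, SE 0.08).

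**Figure D2:**
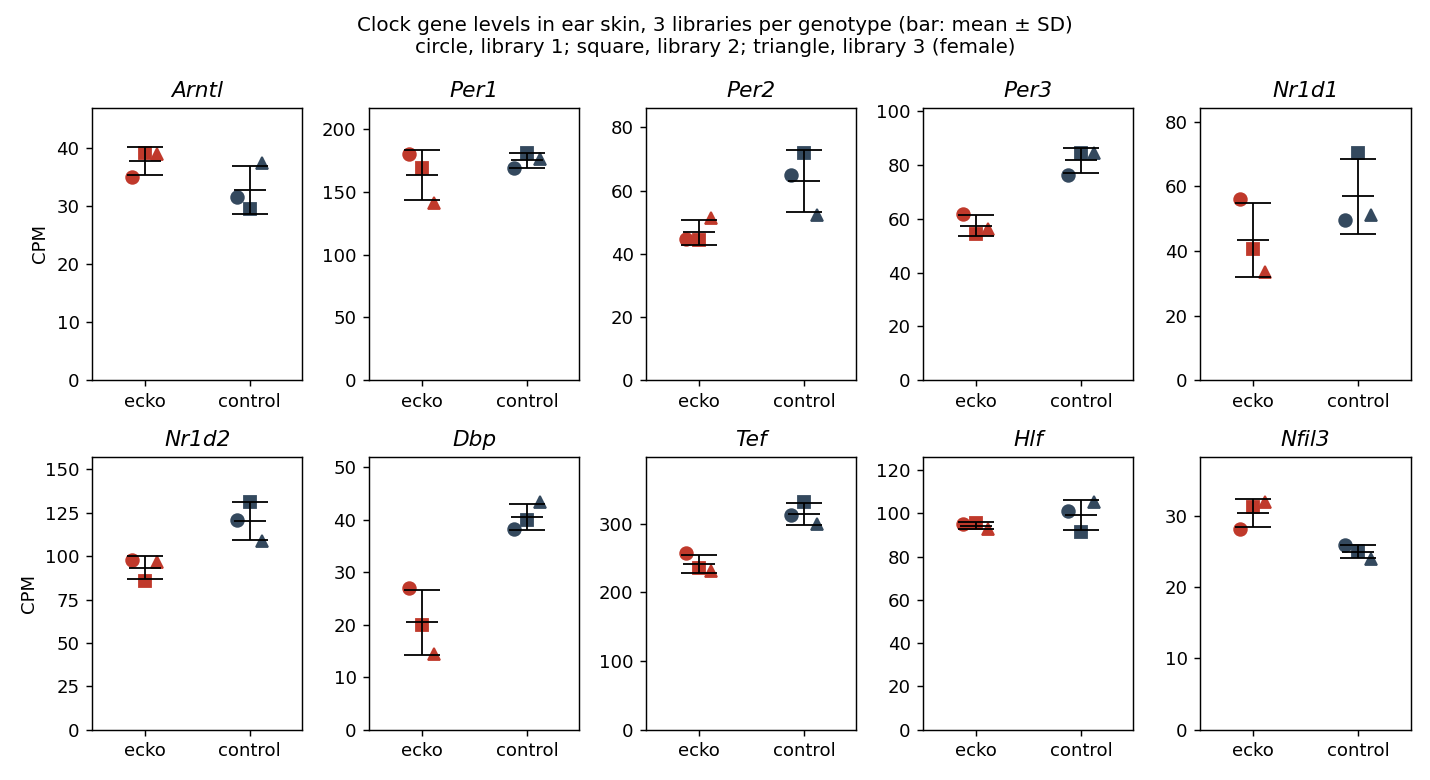
Level of each of the 10 clock genes in CPM (vertical axes start at 0), with ecko libraries in red on the left and control libraries in grey on the right; circles, squares and triangles are libraries 1, 2 and 3, and bars give the mean ± SD of 3. The ecko points of *Per2*, *Per3*, *Nr1d2*, *Dbp* and *Tef* lie below all control points, and those of *Nfil3* lie above them.

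Counted over the 10 genes, 5 had ecko values wholly below the controls and 1 had them wholly above. Over all genes tested, ecko values lay wholly below the controls in 10.8% and wholly above in 10.2%. The genes were picked on this contrast, so nothing is read from that count. The median log2 fold change was -0.38 over the 10 genes and 0.00 over all genes.

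The contrast between the arms was read within each library, which removes any error in scaling between libraries. The ratio of *Dbp* to *Arntl* CPM was 0.768, 0.507 and 0.371 in ecko, against 1.21, 1.35 and 1.15 in control libraries. The ratio of *Dbp* to *Nfil3* was 0.953, 0.635 and 0.456 in ecko, against 1.48, 1.59 and 1.81 in control libraries. In both ratios every ecko library lay below every control. The ratio of *Per3* to *Arntl* was likewise apart, at 1.76, 1.39 and 1.43 in ecko and 2.42, 2.85 and 2.25 in control libraries. The ratio of *Nr1d1* to *Arntl* overlapped, at 1.60, 1.03 and 0.857 in ecko and 1.57, 2.38 and 1.36 in control libraries. The genes were picked on this contrast, and *Dbp*, *Per3* and *Nfil3* were each already apart alone. The ratios are therefore a description and no further support.

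**Figure D3:**
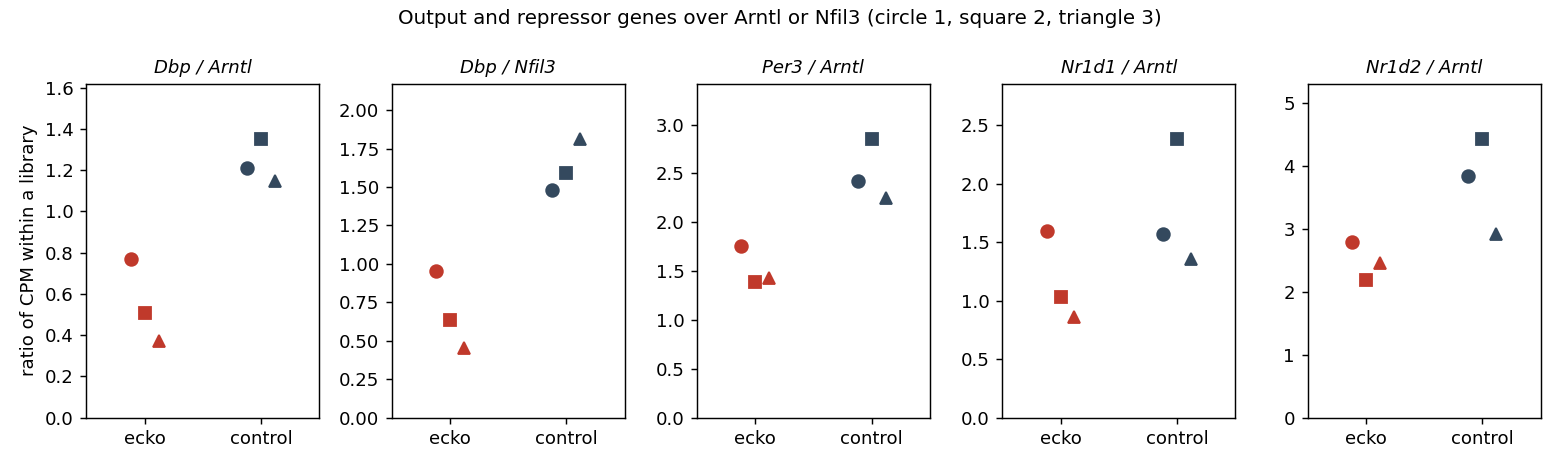
Ratio of the CPM of an output or repressor gene to that of *Arntl* or *Nfil3* in the same library, with ecko on the left and control on the right of each panel (circles, squares and triangles are libraries 1, 2 and 3). The ecko points lie below all control points in each panel except *Nr1d1* over *Arntl*.

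On a log2 scale centred on each gene's mean, the average of the 8 repressing and output genes (all but *Arntl* and *Nfil3*) was -0.06, -0.24 and -0.32 in ecko libraries 1 to 3, and 0.17, 0.29 and 0.16 in controls 1 to 3. An index that subtracts the centred value of *Arntl* from this average was -0.05, -0.40 and -0.48 in ecko, and 0.32, 0.54 and 0.07 in control libraries. Between the groups, ecko 1 and the female control thus lay nearest to each other. The average log2 fold change of the 8 genes minus that of *Arntl* was -0.61, and between -0.74 and -0.49 when single libraries were left out.

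**Figure D4:**
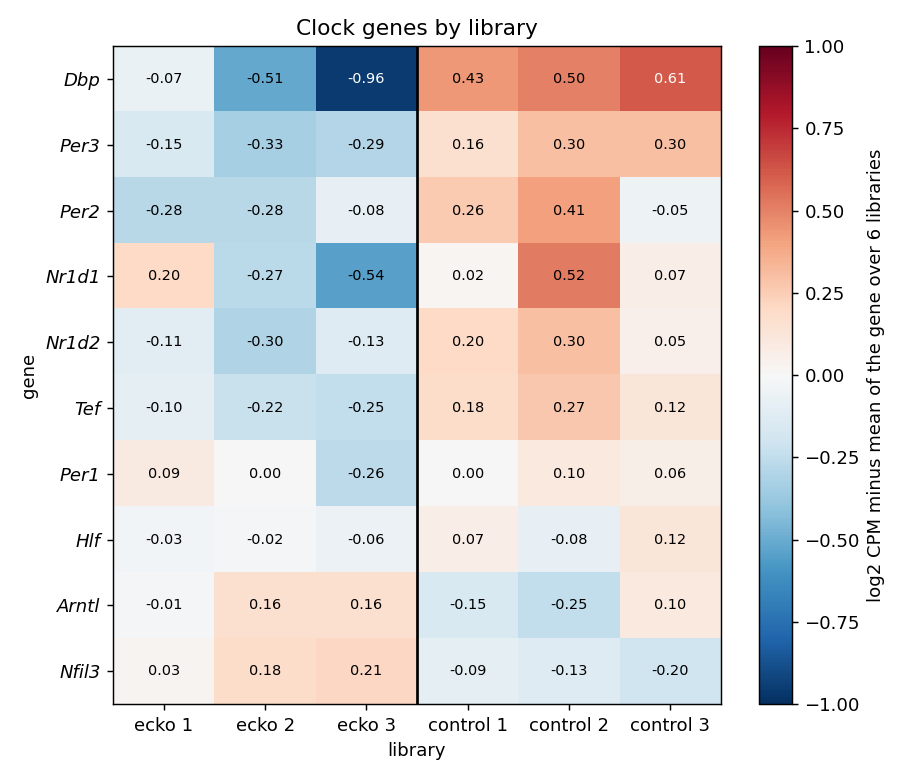
Centred log2 CPM of the 10 clock genes (rows) in the 3 ecko libraries (left of the line) and the 3 control libraries (right), with blue below and red above the mean of each gene. *Dbp* ran from -0.96 in ecko 3 to 0.61 in control 3, and *Nfil3* was above its mean in every ecko library and below it in every control.

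The ecko libraries were not alike. *Dbp*, *Nr1d1*, *Per1* and *Tef* were each highest in ecko 1 and lowest in ecko 3, whereas *Arntl* and *Nfil3* were lowest in ecko 1. The others differed: *Per2* was highest in ecko 3, *Hlf* was highest in ecko 2, and *Per3* and *Nr1d2* were lowest in ecko 2. Immediate early genes, which are switched on within minutes by stimuli and by handling, had in sum the order of *Dbp*, though not each of them did. The summed level of 12 of them was 1540, 1020 and 835 CPM in ecko libraries 1 to 3, against 615, 771 and 875 CPM in control libraries, and *Fos* stood at 211 CPM in ecko 1 and between 33.4 and 53.0 CPM in the other ecko libraries. Of the 12, 1 rose in the test over all genes and 0 fell (0.686% of all genes rose and 1.08% fell). All 12 had a log2 fold change above 0, with a median of 0.48, and 7 had an unadjusted p under 0.05, against 15.4% of all genes. The gene that rose was *Btg2*, an antiproliferative gene, at 197, 158 and 149 CPM in ecko, against 97.9, 117 and 125 CPM in control libraries (log2 fold change 0.57, SE 0.12, edgeR quasi-likelihood adjusted p = 0.0422). The part of these genes in the clock gene values was not tested.

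Sex was balanced, and the values within each sex differed between genes. *Dbp* in ecko was at 59.8% of control in males and at 33.5% in females, and *Per3* was at 72.2% and 66.4%. *Tef* was at 76.7% of control in males and at 77.3% in females, so its difference was the same size in both. *Per2* was at 65.2% of control in males but at 98.1% in the female libraries, and *Per1* was at 99.7% in males and 80.1% in females. With 1 female library per group, these values have no replicate check within females.

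Clock genes outside the 10 were read from a list of loop components, named by their role in the loop. Because the 10 were picked on this contrast, the listed genes are partly what that pick left. Nothing is therefore read from how few of them were called. Of 21 listed genes 20 could be tested, and by edgeR's quasi-likelihood test, adjusted over all genes, 0 were higher and 0 lower in ecko skin, where 0.686% of all genes rose and 1.08% fell. DESeq2 and limma-voom also called 0. An unadjusted p under 0.05 was found for 2 of the 20, against 15.4% of all genes. Of the 20 log2 fold changes 10 were above 0 and 10 below, with a median of 0.02. By role, 4 of 5 activators and partners were above 0 (median 0.12), 5 of 6 repressors were below 0 (median -0.07), and 5 of 9 modifiers were above 0 (median 0.06).

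Among the partners and activators, *Npas2*, which can stand in for CLOCK beside BMAL1, measured 11.5, 13.3 and 13.6 CPM in ecko, against 10.4, 8.65 and 11.2 CPM in control libraries. The groups did not overlap, and the log2 fold change of 0.34 (SE 0.12) did not pass the test (edgeR adjusted p = 0.224, and between 0.131 and 0.490 under the alternatives). *Rora*, the gene of a receptor that activates *Arntl* at ROR elements, measured 340, 353 and 377 CPM in ecko, against 319, 313 and 334 CPM in control libraries. These too were apart, with a log2 fold change of 0.15 (SE 0.06, edgeR adjusted p = 0.311, and between 0.232 and 0.647 under the alternatives). *Clock* had 62.2, 65.4 and 75.1 CPM in ecko and 65.0, 57.9 and 63.1 CPM in control libraries, which overlapped.

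Of the 6 other repressors of the loop 5 had a log2 fold change below 0 and 0 passed the test, with all 6 overlapping between genotypes. Over all genes tested the groups were apart in 21% and 1.76% were called, so overlap without a call is the common outcome. *Cry1* had 42.8, 45.8 and 46.5 CPM in ecko and 49.7, 44.8 and 41.2 CPM in control libraries, a log2 fold change of -0.01 (SE 0.08). *Cry2* had 78.6, 72.3 and 73.7 CPM in ecko and 73.0, 86.9 and 82.9 CPM in control libraries (log2 fold change -0.11, SE 0.07). The cryptochrome genes, whose products act in one complex with the PER proteins, therefore overlapped between genotypes. The log2 fold change was -0.26 for *Ciart* (SE 0.16, edgeR adjusted p = 0.480), -0.26 for *Bhlhe41* (SE 0.15, edgeR adjusted p = 0.448) and 0.13 for *Bhlhe40* (SE 0.08, edgeR adjusted p = 0.523), 3 further repressors of BMAL1-driven transcription, and -0.03 for *Timeless* (SE 0.11, edgeR adjusted p = 0.941), which was listed with them. The 9 genes of kinases, ubiquitin ligase subunits and a deubiquitinase that act on clock proteins had a median log2 fold change of 0.06, with 4 of them below 0.

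**Figure D5:**
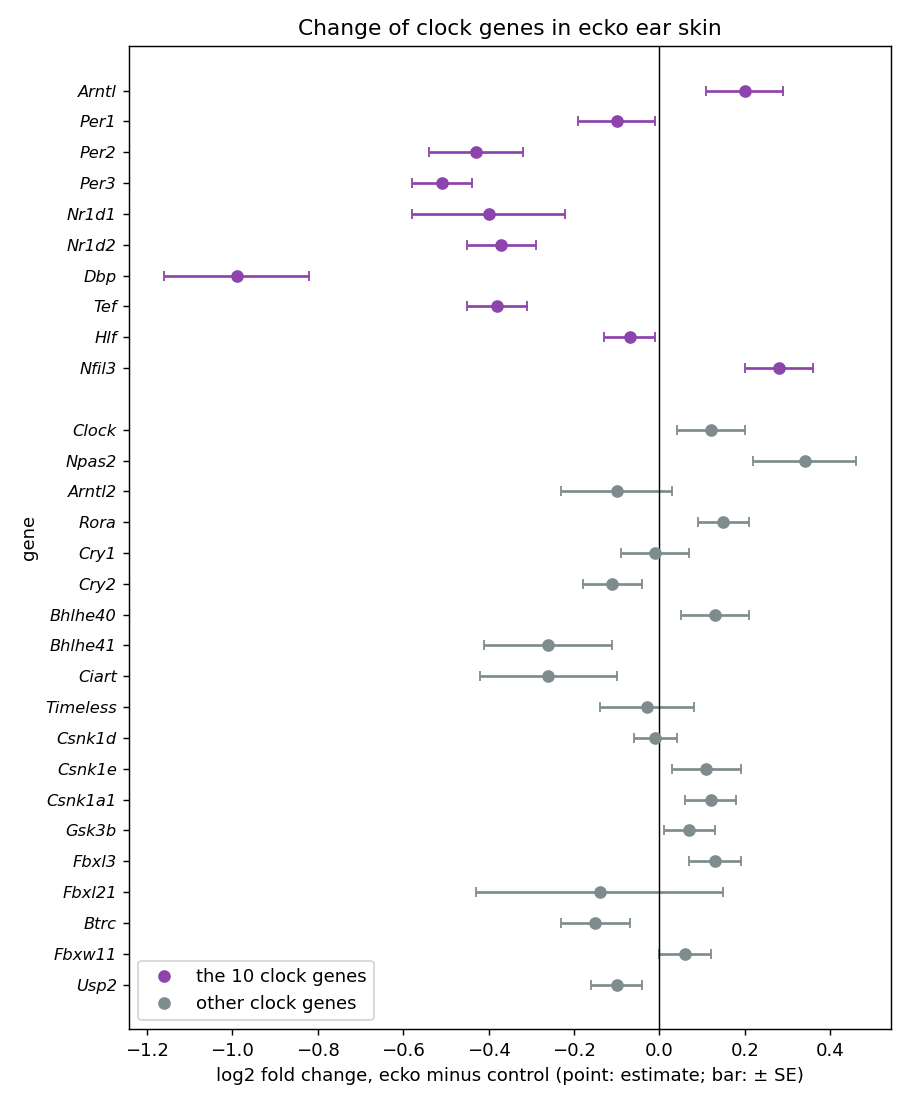
Log2 fold change, ecko minus control, of the 10 clock genes (purple) and of other clock genes (grey), with bars of ± 1 SE from the edgeR fit. *Dbp* at -0.99 lies farthest from 0, and the other genes lie between -0.26 and 0.34.

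Genes known as outputs of the clock in other tissues were read in the same way. Of 14 tested, 0 rose and 0 fell in the edgeR test or with DESeq2 or limma-voom, 3 had an unadjusted edgeR p under 0.05 (15.4% of all genes did), and the median log2 fold change was 0.04. *Wee1*, a cell cycle kinase gene driven through E-boxes in mouse liver, measured 61.1, 62.9 and 67.7 CPM in ecko, against 69.9, 76.2 and 68.0 CPM in control libraries. Its ecko values lay just below the controls (log2 fold change -0.16, SE 0.07, edgeR adjusted p = 0.309). *Tspan4*, a tetraspanin gene, likewise had ecko values below the controls (log2 fold change -0.14, SE 0.06, edgeR adjusted p = 0.318). *Klf10*, a zinc finger transcription factor gene, measured 88.6, 93.2 and 91.4 CPM in ecko, against 82.8, 77.5 and 78.5 CPM in control libraries. Its ecko values lay above the controls (log2 fold change 0.19, SE 0.06, edgeR adjusted p = 0.143).

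Glucocorticoids can reset *Per1* and clock phase, and the summed level of genes that respond to them was lowest in 1 control library. *Fkbp5* measured 237, 254 and 295 CPM in ecko, against 242, 321 and 101 CPM in control libraries, and the summed level of 13 such genes was 2630, 2620 and 2740 CPM in ecko, against 2540, 2920 and 1830 CPM in control libraries. The low value was the female control, the library in which *Arntl* was highest and *Per2*, *Nr1d2*, *Tef* and *Nfil3* lowest among controls. In the same library *Dbp*, *Per3* and *Hlf* were highest among controls, and *Per1* and *Nr1d1* lay between the other controls. The part of the glucocorticoid-responsive genes in the clock gene values was not tested. Without the female control the log2 fold change was -0.55 for *Per2*, -0.43 for *Nr1d2* and 0.31 for *Arntl*. It was -0.94 for *Dbp*, -0.49 for *Per3* and -0.03 for *Hlf*, against -0.99, -0.51 and -0.07 with all libraries. Of the 13 genes 0 rose and 0 fell in the edgeR test, with 1 at an unadjusted p under 0.05, and DESeq2 and limma-voom also called 0. The 13 did not behave as one. Their log2 fold changes were above 0 in 11 and below 0 in 2 (median 0.09). In 1 the ecko values lay wholly above the controls, against 10.2% of all genes. *Dusp1* was not low in the female control, at 54.2, 79.2 and 79.6 CPM in controls 1 to 3.

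The summed levels of markers of several cell types of the ear differed between the genotypes. The 10 endothelial markers summed to 251, 248 and 254 CPM in ecko, against 414, 407 and 403 CPM in control libraries, and 9 of them fell, where 1.08% of all genes fell and 0.686% rose. The 12 skeletal muscle markers summed to 6990 to 7990 CPM in ecko and 8420 to 12400 CPM in control libraries, with 1 that fell, *Ryr1*, and 0 that rose. The 10 fat cell markers summed to 559 to 678 CPM in ecko and 813 to 975 CPM in control libraries, and 4 fell. In 10 of the 12 muscle markers and 7 of the 10 fat cell markers the ecko values lay wholly below the controls, against 10.8% of all genes. In each of these 2 lists 1 marker had a log2 fold change above 0. The 8 markers of differentiated keratinocytes summed to 23200 to 26100 CPM in ecko and 20500 to 23000 CPM in control libraries, and 2 of them rose, *Krt1* and *Casp14*. Most of this keratinocyte sum was *Krt10*, with means of 14500 CPM in ecko and 13200 CPM in control skin. In 3 of the 8 the ecko values lay wholly above the controls, against 10.2% of all genes. *Lor* had a log2 fold change of -0.19. The part of all these markers in the clock gene values was not tested.

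Other compartments mostly overlapped between genotypes. The 7 basal keratinocyte markers summed to 10400 to 10900 CPM in ecko and 9900 to 11300 CPM in control libraries, the 6 fibroblast markers to 23900 to 28100 CPM in ecko and 25500 to 31300 CPM in control libraries, and 8 cell cycle genes to 192 to 244 CPM in ecko and 166 to 216 CPM in control libraries. The summed leukocyte markers lay just apart, at 1280 to 1350 CPM in ecko and 1010 to 1270 CPM in control libraries. In 2 of the 7 the ecko values lay wholly above the controls, as they did in 10.2% of all genes. By edgeR 0 of 7 were called (1 at an unadjusted p under 0.05), by DESeq2 1 and by limma-voom 0. Hair follicle genes were low in all libraries, at 25.0 to 36.4 CPM in ecko and 26.0 to 39.1 CPM in control libraries summed over 10 genes, and *Shh*, a gene of growing follicles, was at or near 0 throughout.

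Levels were compared between genes only per kilobase of annotated exon. In ecko skin *Tef* stood highest at 51.2 CPM per kilobase, followed by *Per1* at 29.0, *Nr1d2* at 20, *Hlf* at 16.7, *Nr1d1* at 15.9 and *Nfil3* at 15.0, with *Arntl* at 12.2, *Dbp* at 11.1, *Per3* at 9.56 and *Per2* at 8.02. In control skin *Tef* was highest at 66.7 CPM per kilobase, followed by *Per1* at 31.2, *Nr1d2* at 25.8, *Dbp* at 22.1, *Nr1d1* at 20.9 and *Hlf* at 17.6, with *Per3* at 13.6, *Nfil3* at 12.3, *Per2* at 10.8 and *Arntl* at 10.6. By its mean *Dbp* thus stood below *Arntl*, *Nfil3* and *Hlf* in ecko skin and above all of them in control skin. Neighbours in this order were often not separated, as for *Dbp* (20.8 to 23.6) and *Nr1d1* (18.2 to 25.8) in control libraries, whereas *Tef* lay above every other gene in all 6.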

How the data were processed

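Poly(A) RNA of ear skin was sequenced in 6 libraries, 3 per genotype. Per the file headers, the authors deposited expected counts, meaning estimated reads per gene without scaling; 10.5% of the values were not whole. The build GRCm38.p6 and the tools RSEM 1.3.1, Bowtie2 2.4.5 and HISAT2 2.2.1 stand, without roles, in the submitters' processing notes. No strand setting is given, so overlapping antisense genes could not be told apart. RSEM divides shared reads by estimate.

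Counts were rounded, filtered with filterByExpr (minimum count 10; 14866 of 18422 genes kept) and scaled by TMM. The test was the edgeR quasi-likelihood test (edgeR 4.0.16, R 4.3.3) with genotype as the only term, Benjamini-Hochberg adjusted over all genes at 0.05. SE was the log2 fold change divided by the root of F. Centred log2 CPM used a prior count of 2. The labels name separate mice by title only, so p-values measure the spread between these samples. Within groups, counts differed by 4.89 to 14.8 times the sampling variance, so no library was a duplicate. The fit was tested on simulated data. A library with at least 500 Y-linked reads was taken as male.

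The members and lists were chosen with earlier results of these data known. The text names *Kdr*, all 10 members, fixed core clock genes, called genes of the output, glucocorticoid and immediate early lists, and the 8 genes per direction most like the arm index. *Fkbp5*, *Dusp1*, *Fos*, *Wee1*, *Tspan4*, *Klf10*, *Timeless*, *Thra*, *Sphk2*, *Camta1* and marker genes were chosen after their values were seen. Gene coordinates and promoters came from RefSeq (GRCm38.p6), in which 99.7% of the table's gene identifiers were found; exon lengths, strands and overlaps came from GENCODE M21 (GRCm38). Alternatives were DESeq2 1.42.0, limma-voom (limma 3.58.1), upper-quartile and RLE factors, 2 other filters, a replicate block, a sex term, the male libraries alone and each library left out. The ROR element was first searched in the longer form, with a further A in front, which matched *Arntl* but not *Nfil3*; the shorter form was taken after that search, and the *Nfil3* match appeared only with it. Some genes of the lists are not reported here.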

Additional observations from a re-analysis of the deposited data

How the results depend on the processing

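All 10 clock genes kept their sign in 15 alternative settings (*Per1* was at 0.00 after rounding in the males alone), and the difference between the arms of -0.61 stayed between -0.74 and -0.49. Since the genes were chosen on this contrast, that is no independent support. The ranges were -1.24 to -0.74 for *Dbp*, -0.57 to -0.47 for *Per3*, -0.62 to -0.32 for *Per2*, -0.62 to -0.22 for *Nr1d1* and 0.13 to 0.31 for *Arntl* (log2 fold changes). *Per2* reached -0.62 in the males alone, a move beyond its spread between libraries. Of the 20 other clock genes 0 were called in each of the 15 settings. They were left after the 10 had been picked on this contrast, so this too is no independent result.

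The counts over all genes, 102 higher and 160 lower, depended on the setting, and the cause was not tested. DESeq2 called 195 higher, the males alone gave 91 lower, and leaving out single libraries gave 22 to 165 higher and 34 to 242 lower, with the lowest counts without ecko 2 and the highest without control 3. The labels give no pairing of libraries beyond the replicate number. Deviations of same-numbered libraries correlated at r = 0.053, 0.0479 and 0.172, and ecko 1 correlated best with control 2 (r = 0.060). The highest value, 0.172, was that of the third libraries, which are the females and so share sex as well as a number. With the replicate number as a block, 63 genes were higher and 129 lower, *Dbp* was at -1.02 and the arm difference was -0.62. DESeq2 called 7 fat cell and 3 muscle markers lower, where edgeR called 4 and 1. The lowest count of any of the 10 genes was 259.7 reads, of *Dbp* in ecko 3.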

Other observations

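Genes were ranked by how closely their log2 CPM over the 6 libraries followed the arm index (the 8 repressing and output genes minus *Arntl*), among 14309 genes with a mean of at least 1 CPM. The libraries of a genotype lie on the same side of this index, so a gene that separates the genotypes tends toward one end of the ranking. Pearson's r is given as a measure of likeness with no test. Among the 8 most alike were *Icam2*, *Agtpbp1*, *Hba-a2*, *Slc46a1*, *Meltf*, *Cdkn2d* and *Cops8* (r from 0.981 to 0.991). *Icam2*, which encodes an adhesion molecule of endothelium, measured 4.06, 3.26 and 3.41 CPM in ecko, against 5.08, 5.69 and 4.37 CPM in control libraries. *Hba-a2* is an alpha globin gene with a near-identical copy, so its value is uncertain. The 8 most opposite were *Bag4*, *Arid2*, *Zfp935*, *Cnot6l*, *Rab27b*, *Wdr26*, *Brox* and *Tpr* (r from -0.993 to -0.983).

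Some clock genes outside the 10 stood near the ends of the same ranking. *Npas2*, the partner of BMAL1, was the 11th most opposite of the 14309 genes (r = -0.981) and *Rora* the 36th (r = -0.964). *Usp2*, a deubiquitinase gene that cycles in many mouse tissues, was the 68th most alike (r = 0.951), with 55.5, 53.5 and 52.8 CPM in ecko and 56.4, 60.4 and 56.9 CPM in control libraries. By contrast *Cry1* (r = 0.0361) and *Bhlhe41* (r = 0.104) lay in the middle of the ranking.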
